A study of Arabidopsis thaliana with 2 samples.

Results

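The genes described here are the flowering repressor FLC (AT5G10140), its relatives MAF1 (AT1G77080), MAF2 (AT5G65050, listed as AGL31), MAF3 (AT5G65060), MAF4 (AT5G65070) and MAF5 (AT5G65080), their partner gene SVP (AT2G22540) and the FLC activator FRI (AT4G00650). They are 8 of 27444 protein-coding genes of Arabidopsis thaliana that could be placed on chromosomes 1 to 5. They were chosen by name and matched by locus identifier, and every 10-kb bin that 1 of them overlaps was taken, which gave 10 of 11916 nuclear bins at 5 loci. MAF2, MAF3, MAF4 and MAF5 lie side by side on chromosome 5 and together fall in 3 bins, so their values cannot be fully separated. The data are MNase-seq, in which micrococcal nuclease digests the accessible DNA and the nucleosome-protected remainder is sequenced. There was 1 library from leaves of the chr5 mutant, named after the chromatin remodeller gene CHR5 and not after chromosome 5, and 1 library from wild-type leaves. Both came from untreated plants grown on plates at 22 °C; the chr5 allele, the accession and the plant age are not given in the labels.

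FLC, the MAF proteins and SVP are MADS-box transcription factors that hold back flowering by repressing genes such as FT and SOC1. FRI raises FLC transcription, the genes of the autonomous pathway lower it, and prolonged cold (vernalization) silences FLC through Polycomb-group proteins. MAF1, also called FLM, acts with SVP in the response of flowering to ambient temperature, and MAF2 keeps plants from responding to short spells of cold. FLC is a textbook case of a gene whose activity is set by its chromatin, and the comparison asks how much nucleosome-protected DNA these loci hold when CHR5 is mutated.

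The libraries held 102412872 counts on chromosomes 1 to 5 in chr5 and 99392770 in the wild type, and each count was scaled to that total. With 1 library per genotype there was no replicate check and no test between genotypes, and every interval below covers counting error only. A 10-kb bin spans many nucleosomes and parts of several genes, so each value belongs to a bin and neither to a gene alone nor to a single nucleosome. The ratio is chr5 over wild type throughout, given as a fold or as its log2. A level is the count of a bin divided by that of the median nuclear bin of the same library. No library of undigested DNA was among the samples, so levels are not corrected for copy number or read placement. The log2 ratio of the 11735 nuclear bins that passed a filter on low counts had a median of 0.015 and an SD of 0.064. The corresponding values for the 9853 bins in chromosome arms, where all 10 bins of these genes lie, were 0.021 and 0.050. Counting alone would give an SD of 0.024 in either set. A counting interval that excludes a fold of 1 therefore does not by itself set a bin apart from the genome.

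Protected DNA at the flowering repressor loci was nearly the same in both libraries. The 10 bins summed to 78473 counts in chr5 and 74548 in the wild type, a fold of 1.022 (exact 95% interval 1.011 to 1.032). Their median log2 ratio was 0.029, with a range from -0.016 to 0.081 and an SD of 0.029, against 0.024 from counting alone. None of the 10 bins was past 1.1-fold in either direction, whereas 0.81% of the analysed nuclear bins were higher in chr5 and 2.65% were lower past that fold. Past a difference of 5%, taken as the same fold either way, 1 bin was higher in chr5 and 0 were lower, beside 12.1% of the analysed nuclear bins that were higher and 9.29% that were lower, so these shares do not set the group apart from the genome. All 10 bins lay within the central 95% of the analysed nuclear bins, which ran from 0.907-fold to 1.08-fold. The intervals of the 10 bins together spanned folds from 0.963 to 1.09, and larger differences lay outside the counting error of every one of them.

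**Figure D1:**
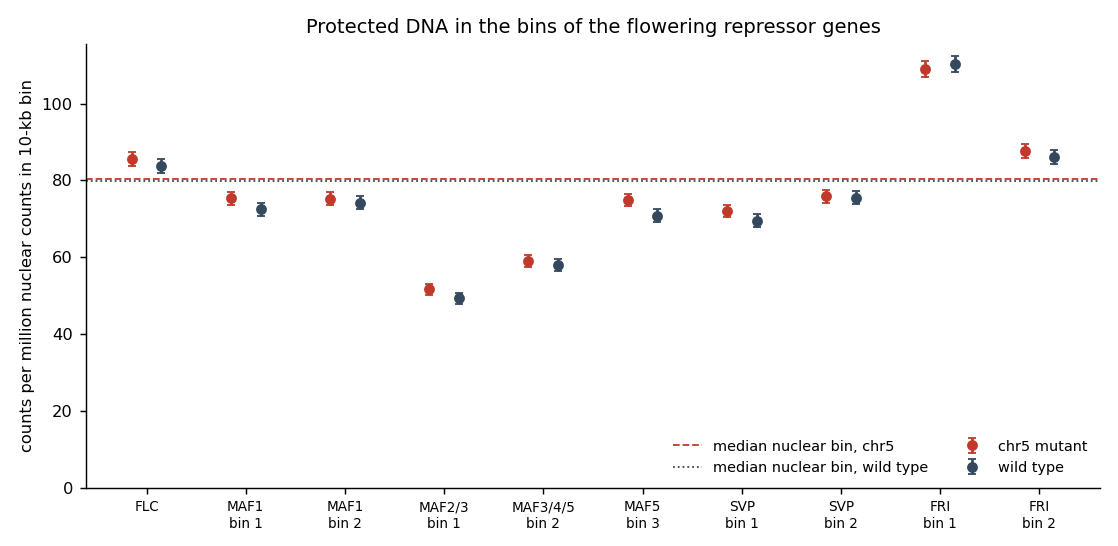
Counts per 1000000 nuclear counts in each 10-kb bin of the 8 genes, in the chr5 library (red, left of each pair) and the wild-type library (dark blue, right), with exact Poisson 95% intervals (counting error only) and the median nuclear bin of each library as a horizontal line. The values of the libraries stay close in every bin, and the bin of MAF2 and MAF3 is the lowest of the 10 in both.

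FLC encodes the central repressor of the group, and its whole length lies in 1 bin (chromosome 5, 3170001 to 3180000), of which it takes 60.7%. This bin held 8772 counts in chr5 and 8329 in the wild type, which is 85.7 counts per 1000000 in chr5 and 83.8 in the wild type. The fold was 1.022 (0.992 to 1.053), an interval that includes 1. The level was 1.064 in chr5 and 1.051 in the wild type, slightly above the median nuclear bin in both. Protein-coding genes cover 87.65% of the bin, and arm bins at least 60% covered by them had a higher median level, 1.12 in both libraries. The gene table also places an lncRNA gene, AT5G01675, over the same stretch, and bins carry no strand, so the 2 genes share these counts.

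MAF1 spans 2 bins on chromosome 1. The bin from 28950001 to 28960000, which holds 95.1% of the gene, had 7717 counts in chr5 and 7207 in the wild type, a fold of 1.039 (1.006 to 1.073). The next bin (28960001 to 28970000), of which the gene covers only 2.34%, had 7697 counts in chr5 and 7378 in the wild type, a fold of 1.012 (0.981 to 1.045). The interval of the bin with most of the gene excluded 1 and that of its neighbour did not, but the intervals of these bins overlap. On the log2 scale the interval of the bin with most of the gene, 0.0090 to 0.10, included the arm median of 0.021. Over both bins, the log2 ratio was 0.037.

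The first and second bins of the MAF2 to MAF5 cluster had the lowest levels of the 10 bins in both libraries. Its first bin (chromosome 5, 25980001 to 25990000), which holds all of MAF2 and 65.6% of MAF3, had 5289 counts in chr5 (level 0.642) and 4901 in the wild type (level 0.618). The second bin (25990001 to 26000000), with the rest of MAF3, all of MAF4 and part of MAF5, had 6039 counts in chr5 (level 0.733) and 5764 in the wild type (level 0.727). The third (26000001 to 26010000), with the other part of MAF5, had 7668 counts in chr5 (level 0.930) and 7034 in the wild type (level 0.887). The level thus increased from the first bin to the third in the same order in chr5 and in the wild type. The MAF genes cover 68.7% of the first bin and 79.2% of the second but only 26.2% of the third.

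All 3 bins are gene-dense. Protein-coding genes cover 68.7%, 79.2% and 77.5% of the 3 bins, and the 5863 arm bins with at least 60% of their length in protein-coding genes had a median level of 1.12 in both libraries. Of those arm bins, 1.26% in chr5 and 1.16% in the wild type were lower than the bin of MAF2 and MAF3. For the second bin of the cluster these shares were 3.68% in chr5 and 4.06% in the wild type. For the third they were 19.1% in chr5 and 15.1% in the wild type. A level under 1.12 was not particular to the cluster among the gene-dense bins. In the wild type FLC (1.051), the first MAF1 bin (0.909), the second SVP bin (0.947) and the second FRI bin (1.08) were also below it. The first FRI bin was above it, at 1.38. Low levels also occurred beside the cluster: 3 of its 20 flanking bins were lower than the bin of MAF2 and MAF3 in both libraries, with levels from 0.505 to 0.541 in chr5 and from 0.489 to 0.530 in the wild type. Protein-coding genes cover 23.8% to 44.4% of those 3 bins. The 4 genes are close copies of each other, and how reads with more than 1 match were counted is not given in the sources used here, so the counts of this cluster are uncertain, and the part of read placement in its levels was not tested.

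The ratio of chr5 to wild type was 1.047 in the bin of MAF2 and MAF3 (1.007 to 1.089), 1.017 in the second bin (0.981 to 1.054) and 1.058 in the third (1.024 to 1.093). Of all 10 bins, the last bin of the cluster, with part of MAF5, had the highest log2 ratio at 0.081, and 91.8% of the analysed nuclear bins were below it. MAF5 covers 26.2% of this bin, and BST1, AT5G65100 and ACX2 reach into it as well. Over the 3 bins together, chr5 had 18996 counts and the wild type 17699, a fold of 1.042 (1.020 to 1.063).

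SVP encodes the MADS-box partner of MAF1 and FLC and spans 2 bins on chromosome 2. The bin from 9580001 to 9590000, with 91.7% of the gene, had 7772 counts in chr5 and 7508 in the wild type, a fold of 1.005 (0.973 to 1.037). The bin before it (9570001 to 9580000), of which SVP covers 3.54%, had 7375 counts in chr5 and 6910 in the wild type, a fold of 1.036 (1.002 to 1.071). The bin that holds most of SVP thus had nearly equal scaled counts in both libraries, and its log2 ratio of 0.0067 turned negative when the median bin was set to 0 or when only arm bins were used for scaling.

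FRI, which encodes the scaffold protein of an FLC-activating complex, lies across 2 bins of chromosome 4. The first (260001 to 270000), which is mostly covered by other genes, had 11159 counts in chr5 (level 1.35) and 10953 in the wild type (level 1.38), a fold of 0.989 (0.963 to 1.015). The second (270001 to 280000) had 8985 counts in chr5 (level 1.09) and 8564 in the wild type (level 1.08), a fold of 1.018 (0.988 to 1.049). Summed, the fold was 1.002 (0.982 to 1.022), the closest to 1 of the 5 loci. FRI covers 11% of the first bin and 15.03% of the second, so most of these counts belong to neighbouring sequence.

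The order of levels over the 10 bins was almost the same in chr5 and in the wild type. The first FRI bin was at the top in both, followed by the second FRI bin and the FLC bin, whose counting intervals overlap with each other. Both SVP bins, both MAF1 bins and the third bin of the cluster formed a middle group in which each bin's interval overlapped that of the next in order, from a level of 0.943 down to 0.895 in chr5 and from 0.947 down to 0.872 in the wild type. The other bins of the cluster followed, with intervals that overlapped neither this group nor each other. The only change of place was between the MAF1 bins, whose intervals overlap.

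Each locus was then set beside the 10 bins on either side of it. At 4 of the 5 loci the log2 ratio lay close to the median of its 20 flanking bins. The difference from that median was -0.0062 for FLC, 0.0068 for MAF1, -0.0019 for SVP and -3.6e-05 for FRI, each with a counting interval that includes 0. For the MAF2 to MAF5 cluster the log2 ratio was 0.059, against a flank median of 0.021. This difference of 0.038 had an interval from 0.0084 to 0.068, which treats the flank median as exact.

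The same difference was computed over 9189 overlapping stretches of 3 analysed arm bins whose 20 flanking bins were also analysed arm bins. Of these stretches, 91.9% were below the value of the cluster, which is inside their central 95% (-0.071 to 0.055). The 20 flanking bins of the cluster had an SD of 0.049 in log2 ratio. The highest of them (26050001 to 26060000), in which TGA1, a bZIP transcription factor gene, covers the most sequence, had 4456 counts in chr5 and 3943 in the wild type, a fold of 1.097 (1.051 to 1.145). The lowest (25910001 to 25920000), led by the transporter-family gene ABCF5, had 9897 counts in chr5 and 9984 in the wild type, a fold of 0.962 (0.936 to 0.989).

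**Figure D2:**
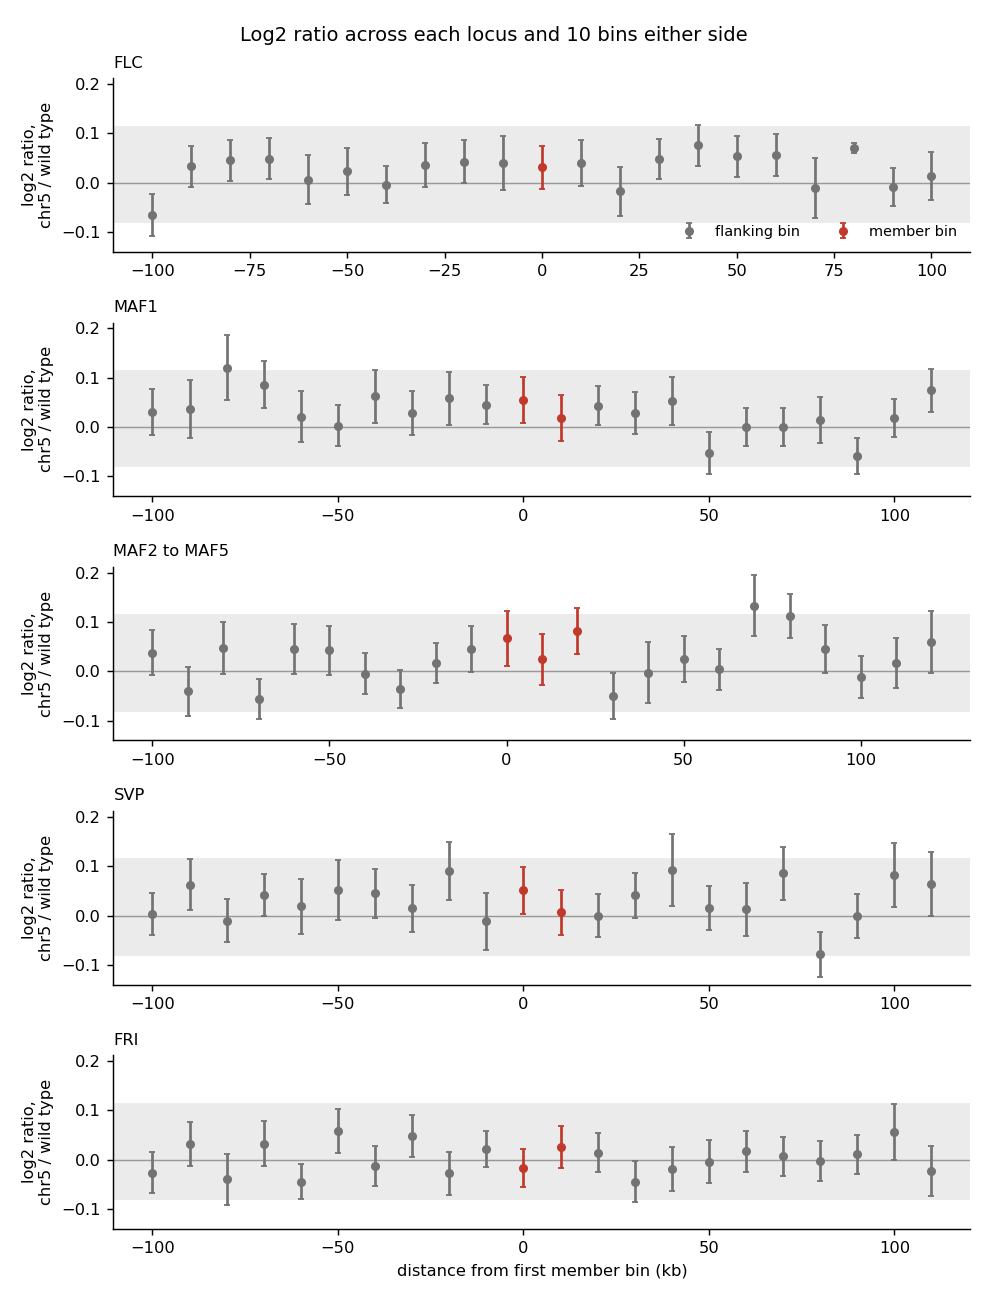
Log2 ratio of chr5 to wild type (vertical axis) in each 10-kb bin of the 5 loci (red) and of the 10 bins on either side (grey), by distance in kb from the first bin of the locus; error bars are exact 95% intervals for counting error and the shaded band is the central 95% of the arm bins, -0.080 to 0.11. The bins of the genes lie within the band and within the range of their neighbours in every panel.

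The neighbourhoods of the other loci also held no bin with a large ratio. Around FLC, the flanking bins ran from a log2 ratio of -0.065, in the bin led by the cellulose synthase gene CESA5, to 0.076, in the bin led by the asparagine synthetase gene ASN3. Around SVP they ran from -0.078, in the bin led by AT2G22710, to 0.092, in the bin led by AGL17, another MADS-box gene. Around FRI the range was from -0.045, led by CCT (AT4G00450), a Mediator subunit gene, to 0.058, led by ATMYC1. Of the 100 flanking bins of the 5 loci, 0 were past 1.1-fold in either direction, though the bin led by TGA1 came near it at 1.097. Among all analysed nuclear bins only 0.81% were higher in chr5 and 2.65% lower past that fold, so this count does not set the neighbourhoods apart from the genome.

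The window of MAF1 holds a second gene of FLC control. Its lowest flanking bin (chromosome 1, 29040001 to 29050000) is 94.5% covered by SDG8, listed as EFS (AT1G77300), which encodes a histone H3 lysine 36 methyltransferase needed for high FLC expression. This bin had 12286 counts in chr5 and 12424 in the wild type, a fold of 0.960 (0.936 to 0.984). It also had the highest level in the window, 1.49 in chr5 and 1.57 in the wild type. The highest ratio in the window, at a log2 of 0.12, was in the bin with the lowest level, 0.478 in chr5 and 0.444 in the wild type, led by the transcription factor gene GT2.

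**Figure D3:**
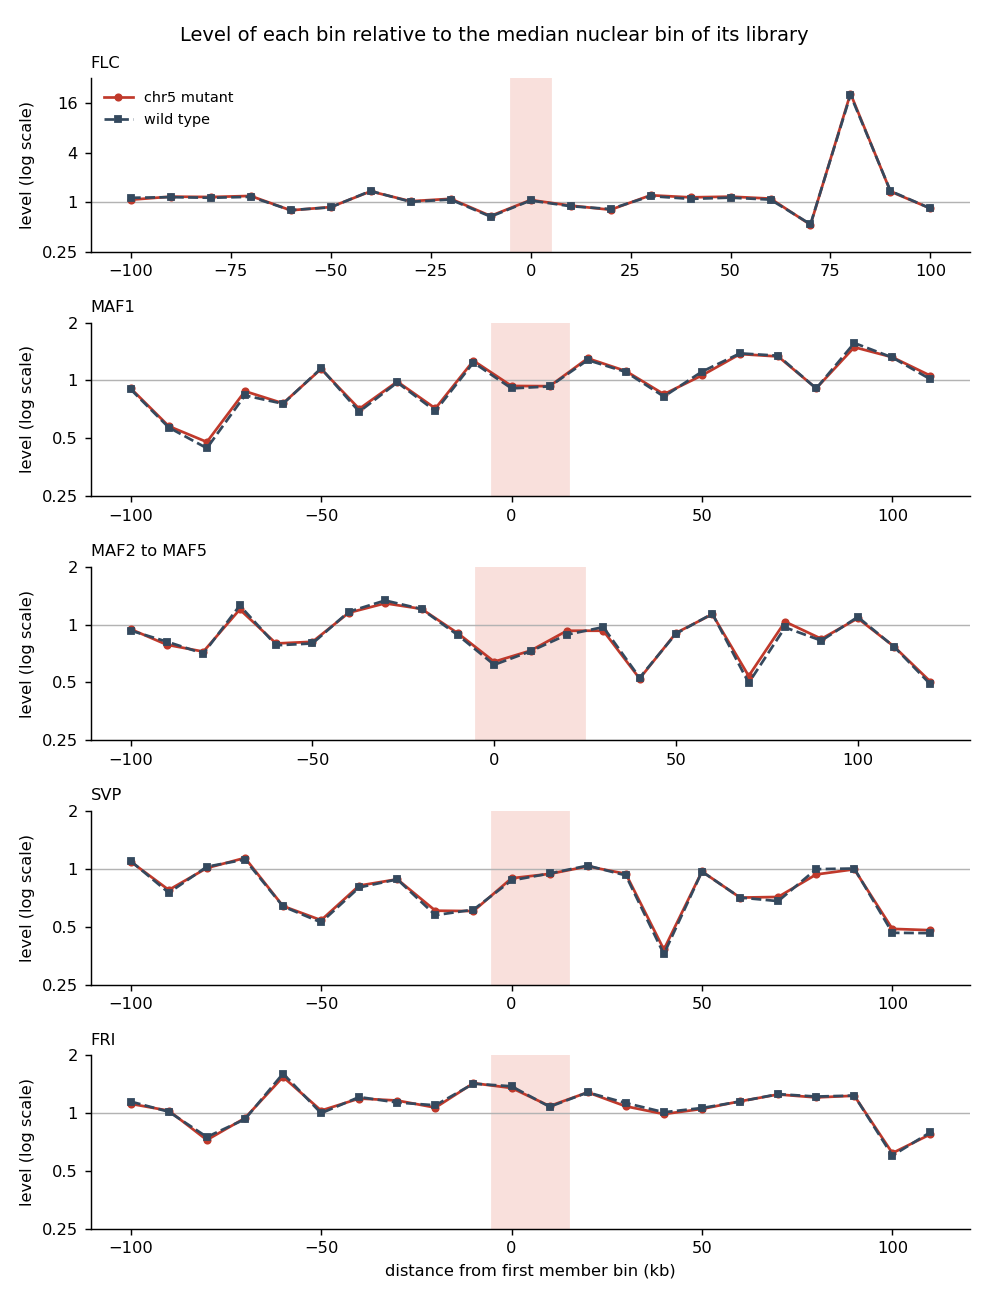
Level of each 10-kb bin relative to the median nuclear bin of its library (log scale) around the 5 loci, by distance in kb from the first bin of the locus, for chr5 (red circles) and the wild type (dark blue squares); the shaded stretch marks the bins of the genes. The profiles nearly coincide, and the MAF2 to MAF5 cluster reaches down to 0.642 in chr5 and 0.618 in the wild type, with 3 of its flanking bins lower still.

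In the arms as a whole the ratio was lower in bins of higher level. The median log2 ratio of arm bins was 0.058 in the lowest decile of mean count and -0.012 in the highest. The flowering repressors include bins of both low and high level. The bin of MAF2 and MAF3, in the second decile, was at 0.067 against a decile median of 0.045, and the first FRI bin, in the top decile, was at -0.016 against -0.012. After the decile median was subtracted, 6 of the 10 bins were above 0 and the values ran from -0.021, in the second bin of the cluster, to 0.053, in the third, with a median of 0.010. The part of this relation in the ratios of the 5 loci was not tested.

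**Figure D4:**
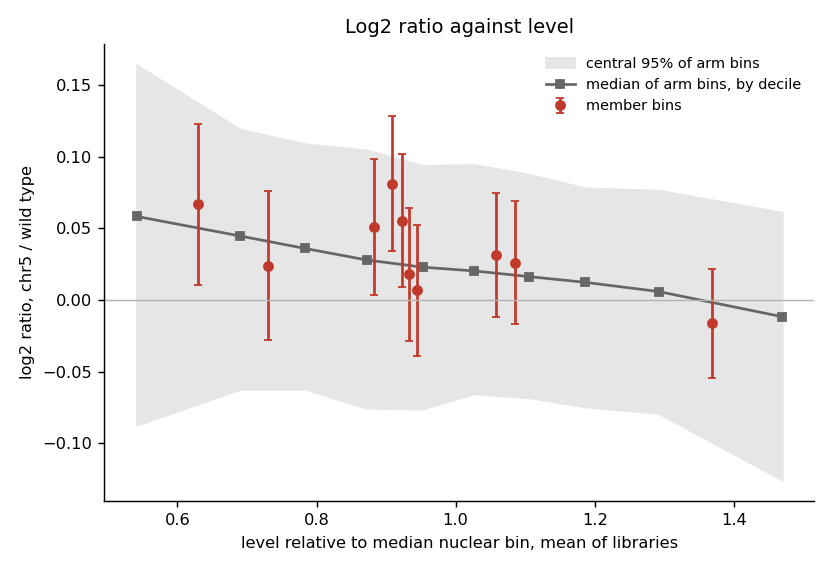
Log2 ratio of chr5 to wild type against the level (mean of both libraries, relative to the median nuclear bin) for the 10 bins of the 8 genes (red, with exact 95% counting intervals), and the median (grey squares) and central 95% (shaded) of arm bins in each decile of mean count. The red points scatter about the grey line, which descends from 0.058 to -0.012, and lie inside the shaded area.

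Genes that act on FLC or below it were examined in 6 lists with 45 genes in all, matched by locus identifier. None of the bins of these lists was past 1.1-fold in either direction, beside the 0.81% higher and 2.65% lower in chr5 among all analysed nuclear bins. For genes, the log2 ratio is that of the summed counts of all their bins; for lists, medians are over distinct bins and stand beside the median of 0.015 over all analysed nuclear bins.

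Activators of FLC were divided between the FRI complex and the chromatin activators that work along transcribed genes. For the 4 genes of the FRI complex, 3 of 4 bins exceeded the genome median, and the list as a whole had a median of 0.036. FES1, a zinc finger protein gene, was at 1.068 (1.035 to 1.101), the FRI relative FRL1 at 1.038 (1.010 to 1.067), AT2G30120 at 1.013 (0.976 to 1.051) and SUF4, whose protein binds the FLC promoter, at 0.990 (0.956 to 1.024). For the 11 genes of the Paf1 complex, of histone H2B ubiquitination and of histone H3 methylation, the list median was -0.0083. Of their 16 bins, 3 exceeded the genome median, 12 were below it and 1 was the median bin itself. Arms held 14 of these 16 bins, and the wild-type levels of the genes ran from 1.04 for HUB2 to 1.63 for ELF7. VIP3 and CDC73 (listed as PHP), which encode Paf1 complex subunits, were at 1.013 (0.987 to 1.040) and 1.012 (0.983 to 1.042). ELF8, also a Paf1 subunit gene, was at 0.975 (0.957 to 0.993), and the H2B ubiquitin ligase gene HUB1 at 0.962 (0.935 to 0.991). The bins of ELF8 are those of this list that lie outside the arms. Analysed nuclear bins outside the arms had a median log2 ratio of -0.054, lower than that of ELF8. With only the bin of its midpoint, the log2 ratio of ELF8 was 0.0013 in place of -0.036.

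For the SWR1 complex, which deposits the histone variant H2A.Z, and for H2A.Z genes, 4 of 8 bins exceeded the genome median, and the median over the list was 0.0032, which turned to -0.011 when the median bin was set to 0 and to -0.012 with scaling to arm bins. The H2A.Z gene HTA9 was at 1.046 (1.015 to 1.078) and the complex subunit gene SWC6 (listed as SEF) at 1.041 (1.010 to 1.072). At the other end were PIE1, the ATPase subunit gene, at 0.981 (0.963 to 0.9996), and HTA11, another H2A.Z gene, at 0.957 (0.933 to 0.982). The log2 ratio of PIE1 was -0.065 in the bin of its midpoint and -0.027 over both its bins. The H2A.Z genes are thus found at both ends of this list.

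Both lists of FLC repressors had a median near 0, which is below the median of 0.015 over all analysed nuclear bins. With the median bin set to 0, these list medians were -0.018 for the autonomous pathway and -0.016 for vernalization and Polycomb. In the autonomous pathway 5 of 13 bins exceeded the genome median and 8 were below it, with a list median of -0.0029. FVE, whose product is a histone-binding WD40 protein, was at 1.064 (1.026 to 1.103) and the RNA-binding protein gene FPA at 1.028 (1.008 to 1.049). FLK, another RNA-binding protein gene, was at 0.988 (0.960 to 1.016) and FLD, which encodes a histone demethylase homologue, at 0.982 (0.964 to 0.99996). With only the bin of its midpoint FPA had a log2 ratio of 0.0010 in place of 0.040.

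Among vernalization and Polycomb genes 4 of 12 bins exceeded the genome median and 8 were below it, with a list median of -0.00086. LHP1 (listed as TFL2), which encodes a reader of the Polycomb mark H3K27me3, was at 1.027 (0.9995 to 1.054) and VRN2, a Polycomb complex subunit gene, at 1.025 (0.997 to 1.054). VRN1 was at 0.989 (0.967 to 1.011) and SWN, a histone methyltransferase gene, at 0.984 (0.965 to 1.003). The intervals of all 4 genes include 1.

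Among floral integrators and genes downstream of the repressors 6 of 9 bins exceeded the genome median and 3 were below it, and the list had a median of 0.043. AGL24, the closest relative of SVP and a promoter of flowering, was at 1.073 (1.038 to 1.109), with 7472 counts in chr5 and 6761 in the wild type. The floral meristem gene AP1 was at 1.048 (1.009 to 1.089), SPL15 at 1.002 (0.974 to 1.032) and the meristem identity gene LFY at 0.996 (0.967 to 1.026). The list holds bins of low level as well. FT, the mobile flowering signal that FLC represses, had a level of 0.597 in chr5 and 0.578 in the wild type, and SOC1 (listed as AGL20) had 0.633 in chr5 and 0.636 in the wild type. No difference between lists was tested. The lists differ in level, and the fall of the ratio with level seen in arm bins was not taken out of their values.

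**Figure D5:**
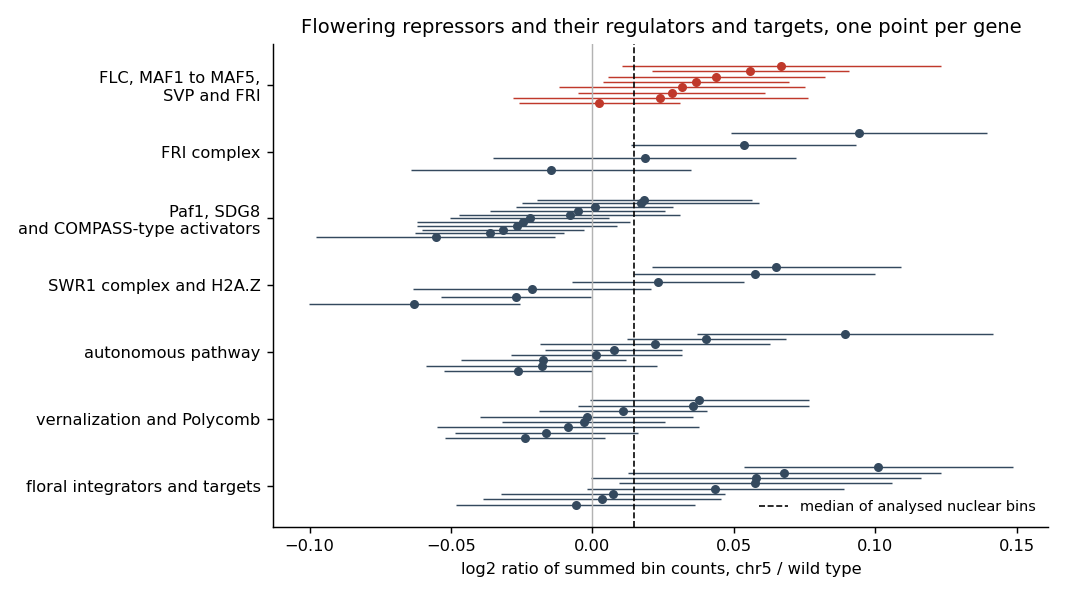
Log2 ratio of chr5 to wild type of the summed bin counts of each gene, with exact 95% counting intervals, for the 8 flowering repressor genes (red) and for the 6 lists of regulators and targets (dark blue); the dashed line is the median of the analysed nuclear bins, 0.015. Red points lie between 0.0024 for FRI and 0.067 for MAF2, within the range of the points of the lists, which runs from -0.063 for HTA11 to 0.10 for AGL24.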

How the data were processed

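The authors deposited 1 table per library of whole-number counts in consecutive 10-kb bins, not normalized. BWA 0.7.5a and bedtools were used, per the submitters' processing notes; for the genome build and the treatment of duplicates and repeated matches the sources used here give nothing. The deposited counts sum to 102961878 in chr5 and 99909809 in the wild type. A RefSeq table (TAIR10.1) gave the position of each gene, and printed coordinates are those of the deposited bins, counted from 1. As a check of placement, the correlation across bins of each chromosome between wild-type log2 count and protein-coding coverage, both less a running median of 21 bins, was 0.20 to 0.41 with no shift and at most 0.083 at shifts of 1 to 4 bins.

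Log2 ratios used a pseudocount of 1. Bins under 0.25 times the nuclear median of the mean scaled count were left out of genome summaries, which removed 181 bins and none of the flowering repressors. Arms were bins over 2 Mb from approximate centromeres. Folds have exact conditional binomial intervals at 95%. Reads are not independent molecules where PCR copies are kept. Scripts were tested on simulated counts. The members and lists were chosen with earlier results of these data known. Named genes were all members, the flanking bins with the highest and lowest log2 ratio per locus, and the 2 highest and 2 lowest genes per list; FT, SOC1 and SDG8's level were added after their values were seen. Protein and promoter sequences were not used here. Software was Python 3.11.15, scipy 1.17.1, numpy 2.4.6, matplotlib 3.10.9 and pandas 2.3.3. Alternatives tried were 3 other scalings, a pseudocount of 10, other filters, flanks, thresholds and gene-to-bin rules, and subsets of the genes.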

Additional observations from a re-analysis of the deposited data

How the results depend on the processing

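No paired analysis was possible because there was 1 library per genotype. With the median analysed bin at 0, the median log2 ratio of the 10 bins was 0.014 and the pooled fold 1.01, and the list medians were -0.023 for Paf1, SDG8 and COMPASS-type activators, -0.011 for the SWR1 complex and H2A.Z, -0.018 for the autonomous pathway and -0.016 for vernalization and Polycomb. With totals over arm bins these 6 values were 0.014, 1.01, -0.023, -0.012, -0.018 and -0.016. Without SVP and FRI the median was 0.044 and the pooled fold 1.032. Without the MAF2 to MAF5 cluster the median was 0.026 and the pooled fold 1.015, against 1.022 for all 10 bins. Past a difference of 5%, 1 of the 10 bins was called, as higher in chr5, beside 12.1% of the analysed nuclear bins higher and 9.29% lower. With only midpoint bins the median wild-type level of the members was 0.909, and with bins at least 10% covered it was 0.928, in place of 0.9201; the median of the SWR1 list was then 0.018 with midpoint bins. The causes were not tested. The difference of the MAF2 to MAF5 cluster from its flanks ran from 0.035 to 0.049 over other flanks, filters and the pseudocount. No analysed bin of the members passed 1.1-fold under any alternative scaling, filter, pseudocount or gene-to-bin rule. At 4901 to 10953 wild-type counts a bin, counting alone leaves folds uncertain by several percent.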

Other observations

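Near FLC, the bin from 3250001 to 3260000 on chromosome 5, chosen after its value was seen, had 172987 counts in chr5 (20.99 times the median nuclear bin) and 159815 in the wild type (20.16 times). The gene that covers the most of it is AT5G10350, with 25.8% of its length. The fold of this bin, chr5 to wild type, was 1.0505 (exact 95% interval 1.043 to 1.058). Its log2 ratio of 0.071 lay within the range of the other bins of that window. The part of copy number or read placement in the level of this bin was not tested. The bin before it (3240001 to 3250000) had the lowest level of the window, 0.532 in chr5 and 0.541 in the wild type. A bin near SVP led by the MADS-box gene AGL17 had the lowest level of all 5 windows, 0.381 in chr5 and 0.360 in the wild type.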
